A study of Schizosaccharomyces pombe with 2 samples.

Results

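The genes of small nucleolar RNAs (snoRNAs) were examined for binding of Cnd2, the kleisin subunit of condensin, in mitotic cells of the fission yeast Schizosaccharomyces pombe. They were taken as every gene of biotype snoRNA in the RefSeq annotation of the 3 nuclear chromosomes, 66 of 12574 nuclear genes, and not by any measured value. In the ChIP sample, chromatin of strain YUK421, which expresses Cnd2 fused to an HA tag, was pulled down through the tag with an anti-HA antibody and its DNA was sequenced (ChIP-seq). The input sample was chromatin from the same kind of culture, sequenced as the comparison. Both groups had been held in mitosis with 5 µg/mL thiamine in EMM medium with glutamate and fixed for 30 min at 25 °C in 0.5% formaldehyde. Each group was 1 library, so nothing below is checked by replicates and no p-value appears. The tag is in both libraries, and no untagged strain was analysed here.

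A snoRNA pairs with a target RNA, mostly ribosomal RNA, and guides a protein complex to it. Box C/D snoRNAs guide methylation of the ribose and box H/ACA snoRNAs guide conversion of uridine to pseudouridine, while a few (U3, U14 and snR30) are needed for cleavage of the ribosomal RNA precursor. Most are made by RNA polymerase II, from genes of their own, from shared precursors that are cut apart, or from introns of host genes. Condensin is the ring complex that compacts chromosomes in mitosis.

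The sequences of 5 snoRNA genes show the letters by which box classes were assigned where the annotation gave none. Coordinates and sequences are those of RefSeq build ASM294v3, read 5′ to 3′ on the gene's strand. In box C/D genes the capitals mark box C (TGATGA) and box D (CTGA), each searched within 30 bases of its end of the gene. In box H/ACA genes they mark ACA placed 3 bases before the 3′ end. snoU14 and snoR69b are box C/D genes with a strong Cnd2 peak and snR40 is one with no peak nearby. snR93 is the box H/ACA gene with the highest fold and snR91 is one with no peak nearby.
snoU14 (II:1308634-1308745, + strand): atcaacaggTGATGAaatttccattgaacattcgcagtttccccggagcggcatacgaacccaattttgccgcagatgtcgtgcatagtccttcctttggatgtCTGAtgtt
snoR69b (I:4154912-4155002, + strand): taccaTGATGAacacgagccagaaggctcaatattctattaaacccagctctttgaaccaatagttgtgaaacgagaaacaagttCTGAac
snR40 (I:431220-431301, + strand): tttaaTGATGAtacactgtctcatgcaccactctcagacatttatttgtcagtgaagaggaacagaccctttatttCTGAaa
snR93 (II:3172781-3172923, + strand): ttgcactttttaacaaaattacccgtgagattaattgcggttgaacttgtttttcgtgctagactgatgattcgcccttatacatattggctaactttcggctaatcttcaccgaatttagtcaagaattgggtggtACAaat
snR91 (I:3316466-3316609, - strand): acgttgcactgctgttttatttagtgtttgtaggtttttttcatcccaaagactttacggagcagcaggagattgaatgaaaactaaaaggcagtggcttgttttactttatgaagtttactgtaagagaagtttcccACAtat

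The peaks are the authors' list for the ChIP library against its input, with 664 peaks on the 3 chromosomes. Each has a summit, the base of highest coverage, and a fold enrichment, the ChIP coverage there over a local background taken from the input. The ChIP library held 39685815 fragments (25933013 after removal of duplicates) and the input 60564558 (54272630 kept). A gene was counted as near a summit when one lay inside it or within 500 bp. Shares have exact Clopper-Pearson 95% intervals that cover counting error only.

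Cnd2 summits lay near 26 of the 66 snoRNA genes, and in most cases the closest one lay past the end of the gene. The share near a summit was 39.4% of snoRNA genes (95% interval 27.6 to 52.2%), against 15.1% of protein-coding genes and 13.3% of all nuclear genes (1668 of 12574). Their peaks were of ordinary fold for the list, apart from snoU14. The 26 genes shared 23 distinct peaks, since some genes overlap or lie side by side. A median snoRNA gene was 114 bp long, against 1773 bp for a protein-coding gene, so a snoRNA gene offered a narrower target. Counted by a summit within 550 bp of the middle of the gene, whatever its length, the share was 36.4% of snoRNA genes (24 of 66) and 5.92% of all nuclear genes. That window takes in the flanks of a short snoRNA gene but barely passes the ends of a median nuclear gene of 1045 bp. It therefore leaves out summits past the ends of longer genes, and the 2 shares are not a like comparison. Among other gene kinds by the 500 bp count, 127 of 171 tRNA genes (74.3%), 5 of 6 spliceosomal snRNA genes and 60 of 135 ribosomal protein genes (44.4%) were near a summit.

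The closest summit lay past the 3′ end of 20 of the 26 snoRNA genes, inside 4 and before the 5′ end of 2. As shares of all 66 snoRNA genes these were 30.3%, 6.06% and 3.03%. Over all nuclear genes the same shares were 4.55% past the 3′ end, 5.01% inside and 3.71% before the 5′ end. The upstream share was thus close to the background and the downstream share above it. The inside shares do not compare like with like, since a median nuclear gene was 1045 bp long. Per length, the last 100 bp before the 3′ end held 4.545 summits per 100 snoRNA genes (3 gene and summit pairs), against 0.9388 per 100 protein-coding genes. Of snoRNA genes near a summit, 76.9% (56.4 to 91.0%) had it downstream, against 46.3% (42.7 to 49.8%) of protein-coding genes near a summit. Ribosomal protein genes had a downstream share of 81.7%, lncRNA genes 25.7% and tRNA genes 5.51%.

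The summits past snoRNA genes sat at a distance from the annotated 3′ end and not directly on it. Measured along the direction of transcription, the 20 distances ran from 123 bp (snR90) to 460 bp (snoZ4), with a median of 264 bp and quartiles of 206.8 and 325.8 bp. For the 358 protein-coding genes with a downstream summit the median was 173 bp, with quartiles of 109 and 271.5 bp and a range of 2 to 493 bp. No summit fell in the first 100 bp past a snoRNA gene. In the next 400 bp there were 7.575 summits per 100 snoRNA genes per 100 bp, against 1.506 for protein-coding genes in the same window and 0.5282 if peaks were spread evenly over the genome. Since genes inside a shared precursor count the same summit again, these densities are descriptions of gene and summit pairs.

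**Figure D1:**
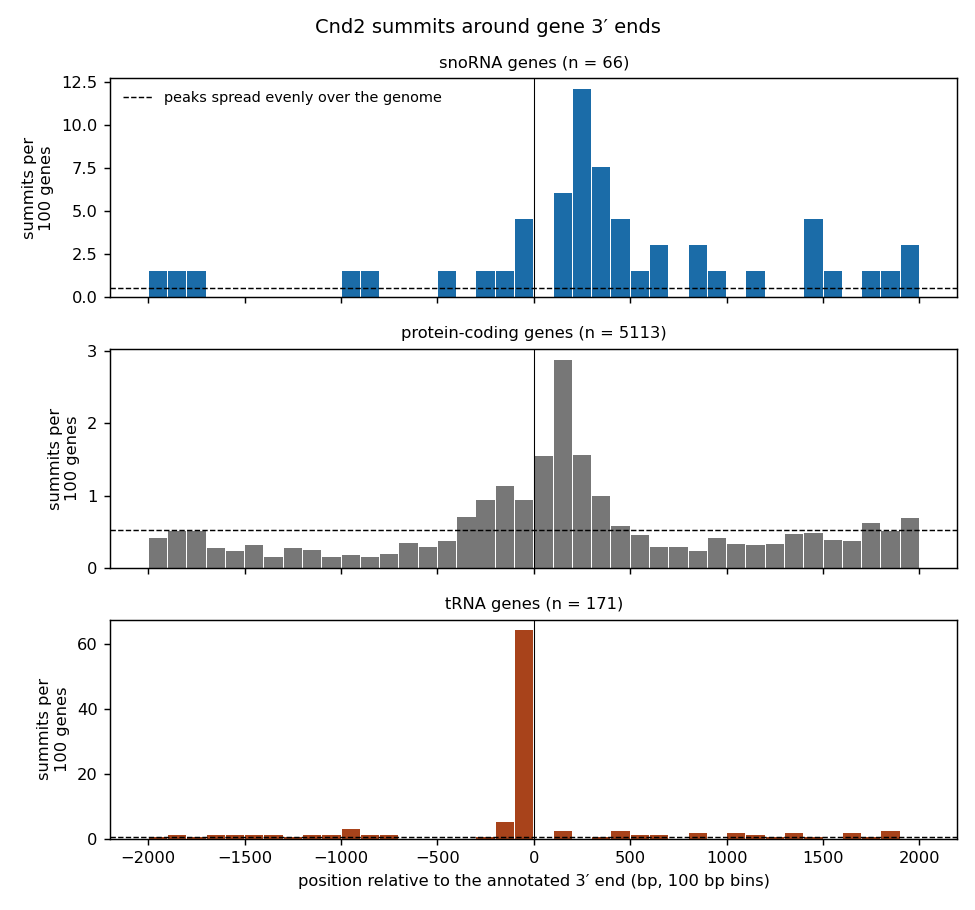
Cnd2 summits around annotated 3′ ends for snoRNA, protein-coding and tRNA genes, as summits per 100 genes in 100 bp bins against position in bp, with a separate vertical scale for each panel and a dashed line for evenly spread peaks. The snoRNA summits gather in the bins from 100 to 500 bp past the 3′ end (20 gene and summit pairs) with 0 in the first 100 bp, while 110 of the tRNA pairs fall in the last 100 bp before the 3′ end, a bin that reaches past the 5′ end of most tRNA genes.

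**Figure D2:**
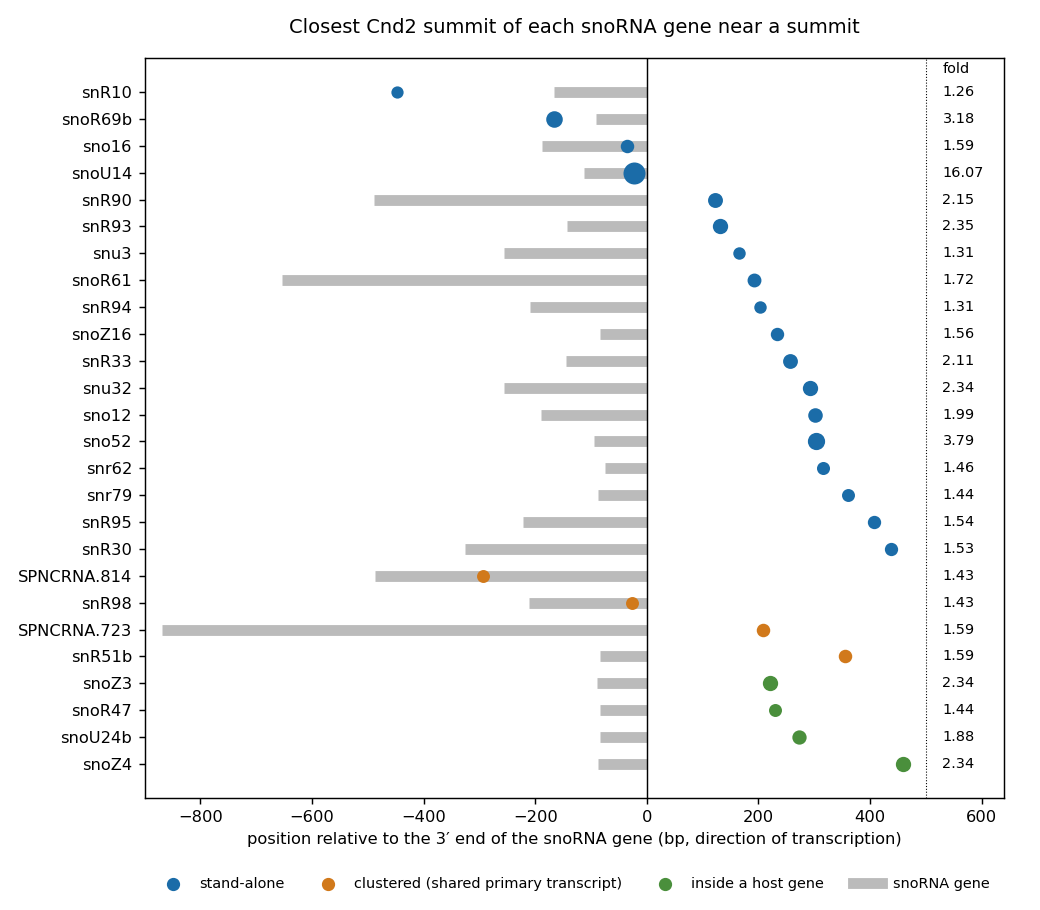
Position of the closest Cnd2 summit (points, size rising with fold) relative to the 3′ end of each of the 26 snoRNA genes near a summit, in bp along the direction of transcription, with the gene drawn as a grey bar, colours for the gene class and the authors' fold at the right. The dotted line marks 500 bp. Summits lie right of the line at 0 for 20 genes, inside 4 and left of the gene for 2.

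Many snoRNA genes end close to where a protein-coding gene running towards them also ends, where Cnd2 summits are common in these data. Of the 20 snoRNA genes with a downstream summit, 12 had it within 500 bp of a protein-coding 3′ end and 12 had it inside a protein-coding gene. These count genes and not distinct summits. snoZ3 and snoZ4 share 1 summit, as do SPNCRNA.723 and snR51b, and these genes are in both counts. The next protein-coding gene lying wholly past the snoRNA gene was convergent for 11 of the 20 genes. At 3 of the 20 another protein-coding gene overlapped the snoRNA gene on the other strand and was passed over. The contribution of the neighbouring gene could not be told apart from that of the snoRNA gene at the 12 with a protein-coding 3′ end within 500 bp. The other 8 had no protein-coding 3′ end within 500 bp of the summit. They were sno52, snu3 (U3), snoZ16, snr79, snr62, snR95, snoR61 and sno12. Their summits lay 166 to 408 bp past the snoRNA gene (median 302.5 bp) with folds of 1.308 to 3.786. Not all of these summits were free of other genes. Those at sno52 and snr79 were inside the protein-coding genes taf9 and gpi12. Those at snoZ16, snR95 and sno12 were inside other annotated non-coding RNA genes.

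Orientation of the next gene lying wholly past the snoRNA gene did not separate the genes beyond counting error. Protein-coding genes overlapping a snoRNA gene on the other strand were passed over here. They lay at 4 of the 26 snoRNA genes near a summit and at 7 of the 40 others. The split is therefore not a full division by neighbour. Of snoRNA genes outside protein-coding hosts, 10 of 17 whose next protein-coding gene ran the same way were near a summit (58.8%, 32.9 to 81.6%), against 14 of 37 with a convergent neighbour (37.8%, 22.5 to 55.2%), and the intervals overlap. The median distance past the 3′ end was 272 bp for the 9 genes with a downstream summit and a tandem neighbour. It was 256 bp for the 11 genes with a convergent one, some of which share a summit. Among the distinct peaks, 14 of the 23 near snoRNA genes were within 500 bp of a protein-coding 3′ end (60.9%, 38.5 to 80.3%), against 405 of the other 641 (63.2%). None of the 23 was within 500 bp of a tRNA or 5S rRNA gene, against 138 of the other 641 (21.5%).

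Stand-alone snoRNA genes had a summit most often of the 3 classes of organisation, by count. These genes have no host and no other snoRNA gene within 1000 bp on their strand, and 18 of the 32 counted as near (56.2%, 37.7 to 73.6%). Clustered genes, each an annotated precursor or an RNA nested in one, had one in 4 of 16 cases (25.0%, 7.27 to 52.4%). For snoRNAs inside a host gene the count was 4 of 18 (22.2%, 6.41 to 47.6%). The intervals of the 3 classes overlap. With a limit of 1000 bp in place of 500 bp, 18 of 32 stand-alone, 6 of 16 clustered and 10 of 18 hosted genes counted as near, so the lead over hosted genes was gone. For snoRNAs in introns of protein-coding genes the count was 2 of 12 (16.7%, 2.09 to 48.4%), close to the 15.1% of all protein-coding genes.

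**Figure D3:**
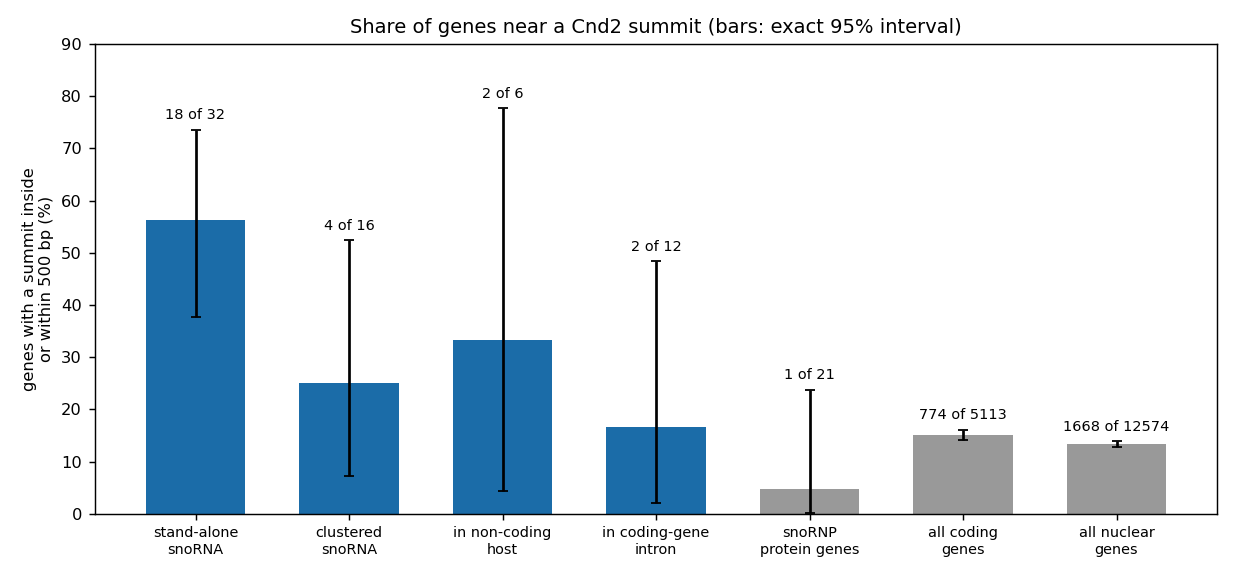
Share of genes with a Cnd2 summit inside or within 500 bp, in percent, for snoRNA genes by class, the protein genes of snoRNA complexes, all protein-coding genes and all nuclear genes, with exact 95% intervals as error bars and counts above them. Stand-alone snoRNA genes stand at 56.2% with an interval above the 15.1% of protein-coding genes, and the intervals of the other snoRNA classes take in that value.

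The genes counted as clustered were annotated precursors and the RNAs nested in them, 7 primary transcript genes with 9 mature RNAs. All precursors but SPNCRNA.723 held a single mature RNA, so most clustered genes were 1 snoRNA annotated both as precursor and as RNA. Only 2 of these 7 precursors were near a summit. SPNCRNA.723 carries snR41, snR70 and snR51b, and a single summit of 1.595-fold lay 208 bp past its end and 355 bp past snR51b, with snR70 583 bp and snR41 831 bp away. SPNCRNA.814 carries the box H/ACA RNA snR98, with a summit of 1.43-fold inside both. When genes that overlap, or that share a non-coding host, were merged into 1 unit each, 23 of 53 units had a summit (43.4%, 29.8 to 57.7%), of which 17 were downstream at a median of 256 bp. No clustered class remained among these units, and 20 of 39 stand-alone units had a summit. The contrast of stand-alone with clustered genes therefore depends on counting precursors and their RNAs as separate genes. Without the primary transcript genes the count was 24 of 59 mature snoRNAs (40.7%).

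Some host genes of intronic snoRNAs had a summit at their own end. In 6 of the 12 protein-coding hosts one lay within 500 bp of the 3′ end of the host (95% interval 21.1 to 78.9%), against 11.6% of all protein-coding genes. The difference from the 2 of 12 with a summit near the snoRNA itself was not tested. Those hosts were cpc2, nog2, SPAC29A4.02C, gua1, rpl701 and fta3. The strongest was past gua1, an enzyme gene of guanine nucleotide synthesis that hosts snoR54, with 8.935-fold at 159 bp beyond the host. snoR54 itself was 816 bp from a different and closer summit of 1.605-fold and did not count as near. The interval of that closer peak did not reach snoR54, but the interval of another listed peak overlapped it.

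At both intronic snoRNAs near a summit, that summit also lay within 500 bp of the end of the host. snoU24b, in the ribosomal scaffold gene cpc2, had one of 1.883-fold at 272 bp past the snoRNA, which is 337 bp before the end of cpc2. snoR47, in the kinetochore gene fta3, had one of 1.444-fold at 230 bp past the snoRNA and 81 bp past the end of fta3. The non-coding gene snoZ hosts snoZ8, snoZ7, snoZ5, snoZ4 and snoZ3 in this order. A single summit of 2.341-fold lay 221 bp past snoZ3, the last of them, and 460 bp past snoZ4. The 3 RNAs further up in snoZ were 659, 898 and 1131 bp from it and were not counted as near. That summit was also 152 bp inside the end of psf3, a gene of a replication complex that runs the other way.

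The box classes could not be separated by how often they had a summit. Box H/ACA genes had one in 9 of 22 cases (40.9%, 20.7 to 63.6%), box C/D genes in 6 of 18 (33.3%, 13.3 to 59.0%), and the 26 genes with neither annotation nor letters in 11 (42.3%, 23.4 to 63.1%). With the annotated box H/ACA genes alone the count was 8 of 19. Letters are a weak guide: they placed snoR54b in box H/ACA, although snR54 of Saccharomyces cerevisiae is a box C/D RNA, and they left U3 unclassed. Median fold at the peaks was 1.543 for box H/ACA and 2.389 for box C/D, whose 6 peaks hold the 3 highest. By chromosome, 15 of 36 genes on I, 8 of 25 on II and 3 of 5 on III were near a summit.

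Apart from a few, the peaks at snoRNA genes had no higher fold than others, and their median coverage was lower. The median fold of the 23 was 1.595 (quartiles 1.451 and 2.246), against 1.723 (1.36 and 2.499) for the other 641 peaks. For the 526 peaks with no tRNA or 5S rRNA gene within 500 bp, a set that includes these 23, it was 1.538. Folds ran from 1.26 (snR10) to 16.07 (snoU14), with 8 of the 23 above 2 and 3 above 3. Without snoU14 the median was 1.591. The median width was 556 bp at snoRNA genes and 522 bp elsewhere. Median coverage at the summit was 624 scaled fragments at snoRNA genes and 792 elsewhere, over median backgrounds of 363.4 and 414.3.

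**Figure D4:**
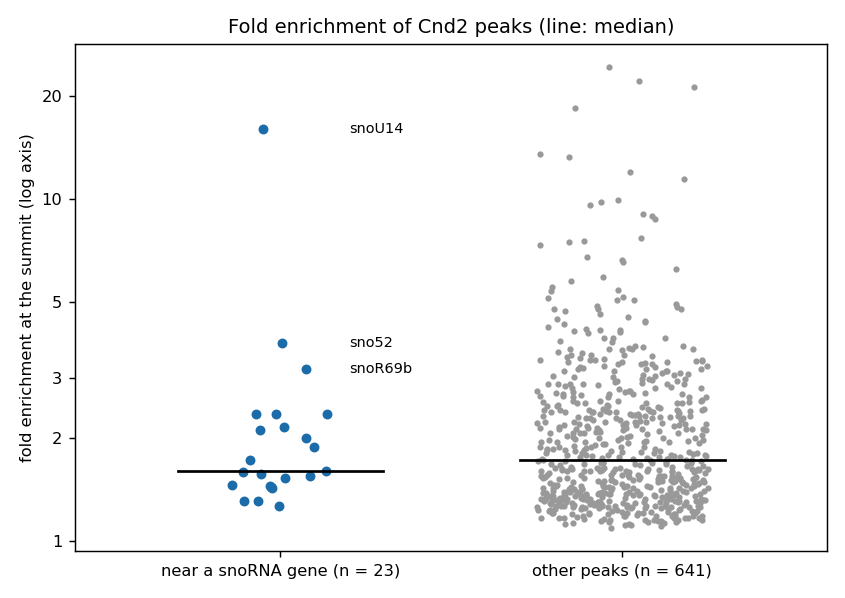
Fold enrichment at the summit (the authors' values, log axis) of the 23 peaks near a snoRNA gene and of the other 641 peaks, 1 point per peak with a line at the median. The medians are 1.595 and 1.723, and snoU14 at 16.07, sno52 at 3.786 and snoR69b at 3.183 lie above the rest of the snoRNA peaks.

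snoU14 had the strongest peak of any snoRNA gene and the 5th highest fold of the list. Coverage at the summit was 6350 scaled fragments in the ChIP library, against a background of 394 from the input, with a fold of 16.07 and a −log10 q of 5079. The peak covered 1916 bp (II:1307907-1309822). Unlike most others, its summit was inside the RNA gene, 89 bp from the 5′ end and 22 bp before the 3′ end. U14 is a box C/D snoRNA required for processing of the small-subunit ribosomal RNA. Upstream, 274 bp away, ends mamRNA, a long non-coding RNA named for its association with the meiotic regulators Mmi1 and Mei2. Downstream, sol1, a gene of a SWI/SNF chromatin remodelling subunit, ends 326 bp from snoU14 and runs towards it. The summit was 349 bp past the end of sol1 and 364 bp past the end of mamRNA.

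sno52 had the second highest fold, with 1364 scaled fragments in the ChIP library against a background of 359.5 from the input. Its fold was 3.786 and its −log10 q was 354. The peak was broad, at 2081 bp (I:338959-341039), and covered the snoRNA gene, with the summit 304 bp past the 3′ end. sno52 is antisense to taf9, a gene of a shared subunit of SAGA and TFIID, and lies wholly within it. The summit was inside taf9, 519 bp before its end, and 522 bp from the end of mcp60, which runs towards taf9. Both ends lie just outside 500 bp from the summit but inside the peak.

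snoR69b had the third highest fold and had its summit upstream, unlike most of the rest. Coverage was 1126 scaled fragments in the ChIP library, against a background of 353 from the input, which gave a fold of 3.183 and a −log10 q of 231.8. The peak was 350 bp wide (I:4154691-4155040), with its summit 76 bp before the 5′ end of the RNA gene. By comparison, the 138 peaks near tRNA or 5S rRNA genes had a median width of 346 bp and a median fold of 2.689. The closest annotated tRNA or 5S rRNA gene was 29505 bp from the summit. No protein-coding 3′ end was within 500 bp. The summit was 142 bp past the end of the lncRNA gene SPNCRNA.242 and 414 bp past that of the lncRNA gene SPNCRNA.3853.

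The promoter of snoR69b, shown because its summit lies there, carried letters that are common in tRNA genes. B boxes, the internal promoter elements of tRNA genes that the factor TFIIIC binds, were searched as GTTCGANTC on the strand of the gene, a search chosen after the snoR69b summit was seen. These letters were in the tRNA gene itself for 107 of 171 tRNA genes (62.6%). They were in 2 of 66 snoRNA promoters (3.03%) and in 35 of 12573 promoters of all nuclear genes (0.278%), counting 250 bp before and 50 bp after the gene's start. In snoR69b they began 16 bp before the gene. The other promoter was that of snoZ16, where they began 55 bp before the gene, while its summit of 1.561-fold lay 233 bp past the 3′ end. Capitals mark TATAAA and the B-box letters.
snoR69b promoter (I:4154662-4154961, + strand): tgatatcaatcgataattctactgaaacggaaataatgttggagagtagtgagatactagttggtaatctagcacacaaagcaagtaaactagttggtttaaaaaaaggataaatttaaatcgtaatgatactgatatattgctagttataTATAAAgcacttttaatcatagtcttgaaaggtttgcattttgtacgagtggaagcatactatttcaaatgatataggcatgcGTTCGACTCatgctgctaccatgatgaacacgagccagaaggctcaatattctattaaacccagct

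The promoter of snoU14, shown as that of the strongest peak, held TATAAA (capitals) and not the B-box letters or HomolD.
snoU14 promoter (II:1308384-1308683, + strand): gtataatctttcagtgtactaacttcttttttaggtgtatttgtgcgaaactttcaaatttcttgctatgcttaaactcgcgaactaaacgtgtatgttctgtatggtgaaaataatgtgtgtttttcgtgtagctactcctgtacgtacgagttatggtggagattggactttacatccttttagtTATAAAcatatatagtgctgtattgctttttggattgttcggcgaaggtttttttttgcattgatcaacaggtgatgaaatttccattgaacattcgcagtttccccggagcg

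Motifs of RNA polymerase II promoters did not mark the snoRNA genes with a summit. HomolD, an element of fission yeast ribosomal protein promoters searched as CAGTCACA on both strands, was in 13 of 66 snoRNA promoters (19.7%), 85 of 135 ribosomal protein promoters (63.0%), and 137 of 5112 protein-coding promoters (2.68%). It was in 4 of the 26 snoRNA genes near a summit (15.4%) and in 9 of the 40 others (22.5%). TATAAA, searched on both strands, was in 11 of the 26 (42.3%) and in 21 of the 40 (52.5%), against 48.1% of protein-coding promoters. A match is a run of letters, not a bound site.

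Of the snoRNAs of ribosomal RNA cleavage other than U14, snu32 had a peak above the list's median fold of 1.721. The peaks at snu3 and snR30 were below it. snu32 (U3B) had 2.342-fold at 293 bp past the gene (II:3958177-3958732, 912 scaled fragments in the ChIP library, −log10 q of 110.6), where grx4, a glutaredoxin gene, also ends 60 bp away. snu3 (U3) had 1.308-fold at 166 bp. snR30 (U17) had 1.526-fold at 437 bp, inside the convergent gene pdi4, a gene of protein disulfide isomerase type.

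The box H/ACA genes with the highest folds had their summits 123 to 301 bp downstream. snR93 had 2.348-fold at 132 bp (II:3172637-3173443, 731 scaled fragments, −log10 q of 89.14), 110 bp past the end of dis2, the gene of a type 1 protein phosphatase. The same summit was 359 bp past the end of rpl29, a ribosomal protein gene. snR90 had 2.152-fold at 123 bp (I:4936558-4937305, 783 scaled fragments, −log10 q of 78.87), inside not3. Farther down, snR33 had 2.11-fold at 256 bp (II:2447496-2448036, 742 scaled fragments, −log10 q of 71.37), inside glo1, the glyoxalase gene. sno12 had 1.991-fold at 301 bp (III:583425-584075, 914 scaled fragments, −log10 q of 76.03), with no protein-coding 3′ end within 500 bp. Completing the 10 highest, the peak shared by snoZ3 and snoZ4 covered 763 bp (I:527345-528107), with 805 scaled fragments and a −log10 q of 97.56.

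The peaks not yet described were below the list's median fold of 1.721, except that at snoR61 with 1.724. sno16 had 1.587-fold, snR95 1.543, snr62 1.458, snr79 1.439, snR94 1.309 and snR10 1.26. sno16 was, with snoU14 and the pair at snR98, a gene with its summit inside, 36 bp before its 3′ end and also 138 bp past php5. snR10 was, with snoR69b, a gene with its summit upstream, at 281 bp. That summit lay 96 bp past the end of pre10, a proteasome gene.

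Just inside the 500 bp limit were snoZ4 at 460 bp, snR30 at 437 bp and snR95 at 408 bp. Just outside were snR70 at 583 bp, snR191 at 614 bp and snoZ5 at 659 bp. Of the 40 snoRNA genes not counted as near, 8 were within 500 to 1000 bp of a summit and 13 were more than 5000 bp away. Their median distance was 3028 bp, and snoR69 was the farthest at 50115 bp.

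The genes of proteins that work with snoRNAs did not share the pattern. Of 22 listed genes 21 were found, among them those of the methyltransferase fibrillarin (fib1), its partners nop56 and nop58, the pseudouridine synthase cbf5 and its partners gar1, nhp2 and nop10. Only pac1, the gene of an RNase III, was near a summit, with 1.145-fold at 468 bp past its 3′ end. That is 4.76% (0.120 to 23.8%), against 15.1% of protein-coding genes, which lies within the interval. The median distance to a summit was 943 bp for the 66 snoRNA genes and 10860 bp for the 21 protein genes.

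The local background was low at most of these summits, and at a smaller majority of the other peaks. At 19 of the 23, and at 352 of the other 641, it was below 429.1 scaled fragments, the mean expected over the genome, which the caller would use as a lower limit had its genome size been that of fission yeast. With that mean as a lower limit, 21 of the 23 still reached the significance of the weakest listed peak, against 601 of all 664. Their median fold was 1.532, with 4 above 2. snoU14 was then at 14.77-fold, sno52 at 3.174-fold and snoR69b at 2.621-fold. The peak at SPNCRNA.814 and snR98 and the peak at snoR47 no longer reached it.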

How the data were processed

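Chromatin of mitotic Cnd2-HA cells was immunoprecipitated and sequenced beside its input, 1 library each. The submitters' processing notes name BWA 0.7.12, MACS2 2.1.0 and the build ASM294v2. Per the file headers, MACS 2.1.0.20150731 compared paired-end ChIP fragments with the input, called peaks at q-values up to 0.05, kept 1 fragment per position and used local windows of 1000 and 10000 bp. Its genome size was set to 1.87e+09, although the 3 chromosomes sum to 12.6 Mb. Removal of duplicates took 34.7% of ChIP and 10.4% of input fragments and can lower tall peaks. The deposited pileup is a signal: coverage by fragments at the summit, scaled between libraries. Fold enrichment, also the authors' value, is the ratio of that coverage to the local background. Significance is the deposited −log10 of the p-value or q-value. These values describe and rank peaks within this 1 list only.

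The list holds 668 peaks, of which 4 on the sequence MTR were not used. Genes, host introns and promoters are those RefSeq annotates on ASM294v3, which is newer than the build of the peaks. No coordinates were converted, and those of peaks are the authors'. As a check, the 127 tRNA genes near a summit had it a median of 40.0 bp from their middle (40.0, 41.5 and 38.75 bp on I, II and III). Distances were taken to the closest summit. A host is an annotated gene on the same strand that holds the snoRNA gene, and clustered genes lie within 1000 bp of another on the same strand. The background at summits was computed back from pileup and fold, allowing for a pseudocount of 1 in the caller. Over 579 peaks a Poisson p based on it came within 0.0034 of the deposited −log10 p.

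The snoRNA genes, the lists and the comparisons were chosen with earlier results of these data known. All snoRNA genes near a summit are named with their fold, the 10 of highest fold in full, with the 3 nearest to the 500 bp limit on either side. Sequences are those of the highest folds and an example per box class without a summit. sno52 is not printed because it lies in an annotated UTR exon. The motif search for B boxes, the counts past 3′ ends and the hosts' own ends were added after values were seen, as was the naming of neighbours. The counting was tested on simulated data. The scripts ran on Python 3.11.15 with pandas 2.3.3, numpy 2.4.6, matplotlib 3.10.9 and scipy 1.17.1. Expression, reads and coverage tracks were not analysed here.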

Additional observations from a re-analysis of the deposited data

How the results depend on the processing

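Of 131 alternative values, 96 stayed within 1.5 times the value reported and 35 moved. With only peaks whose fold was at least the median, 12 snoRNA genes were near a summit, 10 with it downstream and 1 upstream. These were 9 stand-alone and 0 clustered genes, 3 of box C/D and 4 of box H/ACA, beside 0 protein genes of snoRNA complexes. With −log10 q of at least 10, 1 upstream summit and 0 protein genes were counted. With the genome mean as the lowest background, 2 clustered genes were. When the summit had to be inside the gene, 4 were counted in all, 0 downstream and 0 upstream, with 2 stand-alone, 2 clustered and 0 hosted genes, 1 of each box class and 0 protein genes. Within 250 bp there were 14, with 9 downstream, 1 upstream, 9 stand-alone, 2 hosted, 3 of box C/D, 4 of box H/ACA and 0 protein genes. Within 1000 bp there were 4 upstream, 10 hosted and 3 protein genes, with stand-alone genes unchanged at 18. By overlap of the peak interval, 1 gene had its summit upstream. With protein-coding hosts only, 2 hosted genes were near. Settings chosen after seeing the data were merged units and primary transcripts left out. Merging left 0 clustered units, so none could be near a summit, while 20 of 39 stand-alone units were. With primary transcripts left out, 2 clustered genes were near. No paired analysis was possible because each group is 1 library, and no library could be left out. The 500 bp distance therefore sets most counts, and with 26 genes in all the smaller classes cannot be separated.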
